A study of Mus musculus with 9 samples.

Results

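The transcript levels of 10 transcription factor genes with known roles in osteoclast formation were followed through 3 culture conditions of mouse bone marrow-derived macrophages (BMDMs): Nfatc1, Fosl1, Fosl2, Jund, Jdp2, Mitf, Tfe3, Mycl, Prdm1 and Spi1. They were taken by gene name from a table of 28379 genes, and all 10 were in it, each as a single entry. The rule used their names and no measured value, but the factors were chosen with earlier results of these data known. Of the 10, 9 had enough reads to be tested among 17002 genes, and Fosl1 did not.

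BMDMs were isolated from C57BL/6 mice (C57BL/6J mice of 10 weeks in the study's methods) and cultured for 48 h with macrophage colony-stimulating factor (M-CSF, 20 ng/ml), the factor that keeps macrophage precursors alive, in every group. Cells of the PBS group had no RANKL. Those of the RANKL group were given receptor activator of NF-κB ligand (RANKL, 100 ng/ml), the cytokine that turns these precursors into osteoclasts. Those of the RANKL + Vit D + K group had the same RANKL with calcitriol (1000 nM, active vitamin D) and a vitamin K, which the study's methods name as menaquinone-4 (20 μM in the sample labels, while the methods state a higher dose). Each group had 3 RNA-seq libraries made from poly(A) RNA, with 65915112 to 68229647 counted reads a library. The study's methods speak of pooled RNA and the labels do not tie libraries to separate mice, so the p-values measure the spread between these libraries, which may be technical. No group received 1 vitamin alone, so the vitamins cannot be told apart.

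The treatments were visible in their best known target genes. Ctsk, the collagen-degrading protease of osteoclasts, was at 7.002 to 11.4 FPKM (mapped fragments corrected for transcript length and for depth) with PBS and at 214 to 426 with RANKL. Cyp24a1, the vitamin D-degrading enzyme that calcitriol induces, had 39, 113 and 64 reads in the RANKL + Vit D + K libraries and at most 3 in any other. The summed FPKM of 9 macrophage marker genes was 27047 to 31305 with PBS, 17073 to 24953 with RANKL and 4568 to 11662 with the vitamins, with no overlap between the groups. Lyz2, the lysozyme gene, made up 69.8% to 90.4% of that sum in single libraries, and the other 8 markers summed to 2866 to 3066, 2070 to 2734 and 1378 to 1494 FPKM. The markers did not all fall: with the vitamins 7 of the 9 were called lower and Cd68 higher against both other groups (edgeR log2 fold change 0.53 against RANKL and 0.54 against PBS, adjusted p = 0.0143 and 0.0106), and Itgam passed in neither comparison (adjusted p = 0.115 and 0.557). Marker sums of dendritic cells, of lymphocytes and of stromal cells or osteoblasts were at or below 0.798, 0.795 and 1.78 FPKM in every library, and those of erythroid cells and of mast cells or basophils at or below 0.473 and 0.0727, and no listed marker in the table was at 0 in all 9 libraries. Of the lists, 3 of 6 lymphocyte, 5 of 6 erythroid and 2 of 4 mast cell or basophil markers were among the genes of the table. The 9 neutrophil markers summed to 65.3, 128 and 11.1 FPKM with PBS, 90.6, 148 and 11.4 with RANKL and 0.757, 1.72 and 0.551 with the vitamins, highest in replicate 2 and lowest in replicate 3 of every group. The part of these shifts in the results below was not tested, and in bulk RNA a smaller number of cells of a type cannot be told apart from less RNA per cell. RANKL + Vit D + K replicate 2 stood between the RANKL libraries and the other 2 libraries of its group on the first principal component of all genes (58.5, against 152 and 127, with -59.4 to -25.9 for RANKL), and values without it are given for the factors whose call or size turns on it. Of the 125 tested genes in the lists of related genes described below, 20, 22 and 21 gained a call without that library and 0, 1 and 2 lost one in the comparisons of RANKL with PBS, of the vitamins with RANKL and of the vitamins with PBS, and values without it are given for some of them.

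Osteoclasts are multinucleated cells that dissolve bone, and they form when RANKL binds its receptor RANK on macrophage precursors. RANK signalling activates NF-κB and the AP-1 dimers of FOS and JUN proteins, which together with calcium-calcineurin signalling switch on NFATc1, the factor regarded as the master regulator of the osteoclast programme. PU.1 (encoded by Spi1) and the MiT family factors MITF and TFE3 prepare osteoclast genes in the precursor, JDP2 is an AP-1 family partner needed for NFATc1 induction, and BLIMP1 (encoded by Prdm1) silences genes that hold the precursor back, such as Irf8 and Bcl6. L-Myc (encoded by Mycl) belongs to the MYC family of growth regulators and is induced during osteoclast formation.

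Of the 9 factors tested, 3 rose with RANKL and 7 changed when the vitamins were added to RANKL. Nfatc1, Jdp2 and Mycl passed an edgeR Benjamini-Hochberg adjusted p of 0.05 upward between PBS and RANKL, and none passed downward (2, Mitf and Tfe3, at an unadjusted p under 0.05, and 0 with DESeq2). Over all tested genes, 2.35% were called higher and 1.26% lower. With the vitamins against RANKL alone, Nfatc1, Fosl2, Jdp2, Mycl, Prdm1 and Spi1 fell and Mitf rose, while 17.2% of all tested genes were called lower and 16.4% higher. Against the PBS group, the vitamin-treated cells had lower Nfatc1, Fosl2, Tfe3, Prdm1 and Spi1 and higher Jdp2, where 21.0% of all tested genes were called lower and 19.8% higher. The median log2 fold change of the 9 factors was 0.43, -1.27 and -0.42 in these comparisons, beside -0.04, -0.04 and -0.04 over all tested genes. The first 2 comparisons share the RANKL libraries, so a RANKL library that is high by chance raises one difference and lowers the other. With 3 libraries against 3, an exact permutation test of a single gene cannot give a two-sided p below 0.1, so the calls rest on the edgeR fit across all genes.

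The counts of called factors depended on single libraries. With RANKL against PBS the count was 1 without PBS replicate 1, PBS replicate 3 or RANKL replicate 1, when only Jdp2 remained, and 5 without RANKL + Vit D + K replicate 2, when Mitf and Tfe3 joined as lower; all called genes numbered 614 and ranged from 126 to 1903 with 1 library left out. With the vitamins against RANKL the count was between 5 and 8 with any library left out. Against PBS it was 3 without PBS replicate 1 or RANKL + Vit D + K replicate 3 and 7 without RANKL + Vit D + K replicate 2.

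**Figure D1:**
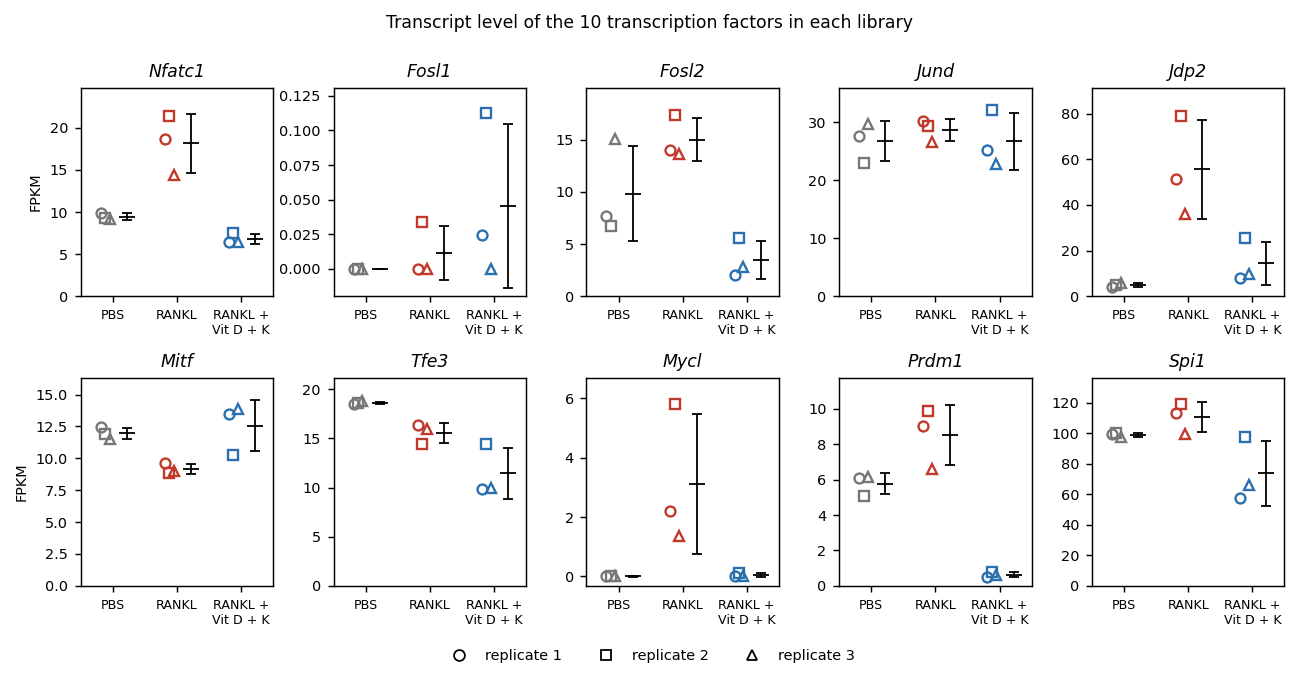
FPKM (vertical axes, each from 0 or just below) of the 10 transcription factor genes in the 3 libraries of each group; symbols mark the replicate and the black bars give the mean ± SD. Prdm1 sits at 0.525 to 0.766 with the vitamins, under every other library, whereas Jund overlaps between all groups.

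**Figure D2:**
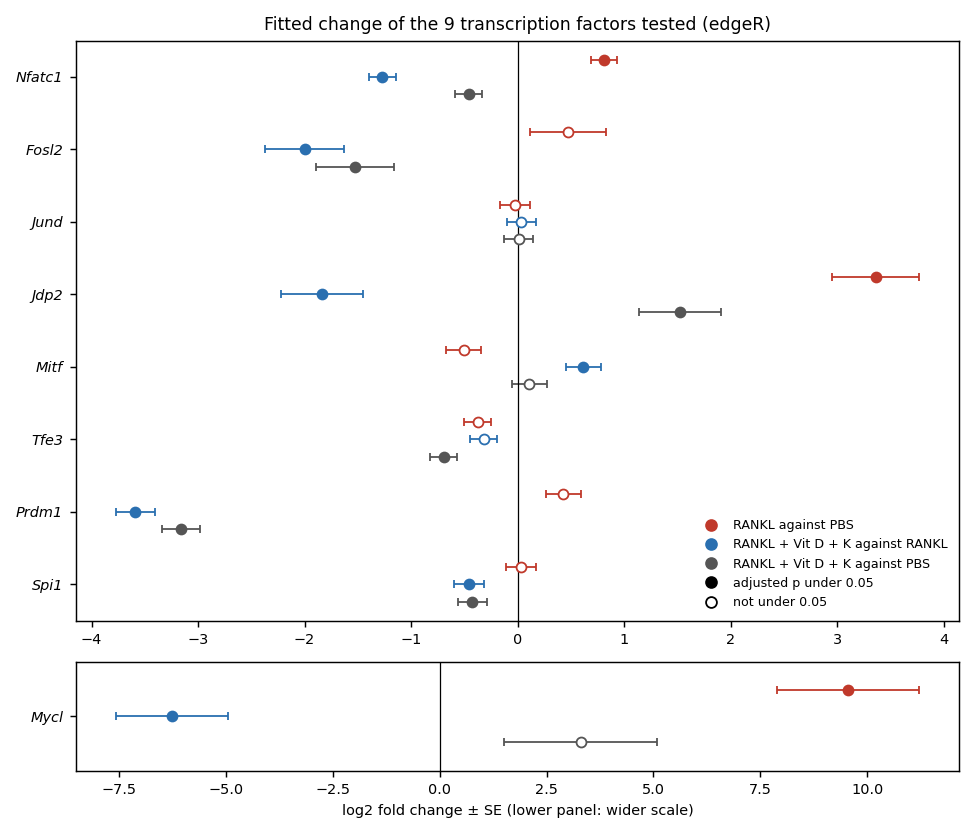
Fitted log2 fold change with its standard error for the 9 tested factors in the 3 comparisons, with Mycl on a wider scale below; filled points passed an adjusted p of 0.05. Jdp2 is the only factor above its PBS level with the vitamins that passed the test, and Prdm1 and Fosl2 lie far to the left of 0 against both other groups.

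Of the 6 factors that fell with the vitamins, 4 fell by more than 3 times, and the RefSeq promoters of those 4 are shown here because these genes moved together in that comparison. Promoters of 7 of the 10 genes were found in the RefSeq table (GRCm38.p6, 250 bases before to 50 after each start site). Nfatc1, Fosl1 and Spi1 had no entry. Each line runs 5′ to 3′ on the gene's strand, and capitals mark a match to 1 of the 7 motifs searched.
Prdm1, chr10:44458699-44458998, minus strand: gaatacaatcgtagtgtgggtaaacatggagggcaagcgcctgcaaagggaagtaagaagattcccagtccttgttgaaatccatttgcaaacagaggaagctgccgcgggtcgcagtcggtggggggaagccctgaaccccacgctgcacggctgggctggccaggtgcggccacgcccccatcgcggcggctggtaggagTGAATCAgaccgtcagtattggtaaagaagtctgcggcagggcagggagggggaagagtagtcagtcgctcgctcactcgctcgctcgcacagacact
Jdp2, chr12:85599166-85599465, plus strand: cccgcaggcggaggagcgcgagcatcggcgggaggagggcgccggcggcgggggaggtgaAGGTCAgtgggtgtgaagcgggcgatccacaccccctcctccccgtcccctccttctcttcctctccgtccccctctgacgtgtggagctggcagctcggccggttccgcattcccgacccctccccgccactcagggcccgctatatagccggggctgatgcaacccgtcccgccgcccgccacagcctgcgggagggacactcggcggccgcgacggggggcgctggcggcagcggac
Mycl, chr4:122995681-122995980, plus strand: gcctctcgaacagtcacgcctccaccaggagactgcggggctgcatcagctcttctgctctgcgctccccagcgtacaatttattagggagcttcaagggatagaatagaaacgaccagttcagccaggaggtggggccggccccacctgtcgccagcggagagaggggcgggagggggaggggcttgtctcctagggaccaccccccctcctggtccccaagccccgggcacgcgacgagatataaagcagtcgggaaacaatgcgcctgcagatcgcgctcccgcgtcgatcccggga
Fosl2, chr5:32136222-32136521, plus strand: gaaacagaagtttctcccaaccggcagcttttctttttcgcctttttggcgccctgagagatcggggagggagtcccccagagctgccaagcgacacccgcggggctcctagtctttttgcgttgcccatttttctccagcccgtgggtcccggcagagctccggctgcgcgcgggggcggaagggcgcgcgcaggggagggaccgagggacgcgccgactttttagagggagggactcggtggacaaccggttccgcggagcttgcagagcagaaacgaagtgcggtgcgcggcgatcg
The Prdm1 window holds TGAATCA from position -48 relative to the start site. It matches the pattern searched for AP-1, TGANTCA, in which N stands for any base. Of the windows of the 3 RefSeq starts of Jdp2, only the one printed held a match to a motif searched. It holds the nuclear receptor half-site AGGTCA from position -190. Neither the Mycl nor the Fosl2 window held any of the motifs searched on either strand, which besides these were the NFAT core TGGAAA, the PU.1 core GAGGAAGT, the E-box CACGTG, the M-box TCATGTG and the CRE TGACGTCA. Among all 32851 promoters in the table, 7.81% held the AP-1 motif, 16.3% the half-site, 21.4% the NFAT core, 3.20% the PU.1 core, 7.15% the E-box, 3.77% the M-box and 1.79% the CRE. The Prdm1 window starts inside the gene as deposited, which spans 44437177 to 44528501 of chromosome 10.

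Nfatc1, the master regulator of osteoclast genes (chromosome 18, 80606205 to 80713071, minus strand, GRCm38), was higher with RANKL than with PBS, and lower with RANKL and the vitamins than with either. Its FPKM was 9.92, 9.26 and 9.19 with PBS, 18.7, 21.4 and 14.4 with RANKL and 6.41, 7.48 and 6.44 with the vitamins. The 3 groups did not overlap at any point. The rise with RANKL was 1.75-fold (log2 fold change 0.81, SE 0.125, edgeR adjusted p = 0.0121) and the fall with the vitamins 2.41-fold (-1.27, SE 0.127, adjusted p = 0.00044). The vitamin-treated cells also stood below the PBS group (-0.46, SE 0.125, adjusted p = 0.0171).

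The fall of Nfatc1 with the vitamins was called under all 17 alternative settings, the rise with RANKL under 14 of 17, and the difference from PBS under 12 of 17. The rise missed the threshold without PBS replicate 1 (adjusted p = 0.0528), PBS replicate 3 (0.0630) or RANKL replicate 1 (0.0587). The difference from PBS missed it without PBS replicate 1, 2 or 3 (0.105, 0.0596 and 0.0770) and without RANKL + Vit D + K replicate 1 or 3 (0.0677 and 0.0954).

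Of the 3 calcium-regulated NFAT genes tested, Nfatc1 passed the test with RANKL, and Nfatc2 and Nfatc3 did not (edgeR adjusted p = 0.843 and 0.635). Nfatc1 made up 41.2% ± 1.68 (SD, n = 3) of the summed FPKM of Nfatc1 to Nfatc4 with PBS, 56.9% ± 4.49 with RANKL and 42.3% ± 1.32 with the vitamins. The family sum was 31.7 ± 3.77 FPKM with RANKL and 16.1 ± 1.89 with the vitamins, and Nfatc2 fell beside Nfatc1 there (log2 fold change -1.73, edgeR adjusted p = 0.00284). Nfatc3 was at 6.72 to 7.87 FPKM in all 9 libraries and was the most abundant member with the vitamins, at 47.0% ± 3.30 of the sum. Nfatc4 had at most 7 reads in any library.

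Over all tested genes, 2.35% were called higher and 1.26% lower with RANKL, and 16.4% and 17.2% with the vitamins against RANKL. These shares are the background of this list and of those below. Among 13 tested genes of the other NFATs and of calcineurin signalling, none passed the edgeR test with RANKL (1 at an unadjusted p under 0.05, 0 with DESeq2 and 0 or 1 over the alternatives) and 6 passed with the vitamins, 4 upward and 2 downward (median log2 fold change 0.10). The 4 that rose were the calcineurin subunit genes Ppp3cc (1.35, adjusted p = 0.00177), Ppp3cb and Ppp3r1 and the calcium-dependent kinase gene Camk2d (1.35, adjusted p = 0.00302). Plcg1, a phospholipase upstream of calcium release, fell beside Nfatc2 (-0.42, adjusted p = 0.0360). Rcan1, a calcineurin inhibitor and a known NFATc1 target, was at 7.35 to 7.62 FPKM with RANKL and 4.54 to 5.47 with PBS, and this did not pass the test (adjusted p = 0.165; 0.0484 without RANKL + Vit D + K replicate 2). With the vitamins against RANKL its log2 fold change was -0.30 (adjusted p = 0.170), and -0.44 without that library (adjusted p = 0.0246).

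Of the 4 AP-1 family factors, Fosl2 and Jdp2 fell with the vitamins, Jund had no called difference and Fosl1 was nearly silent. Fosl2 encodes FRA-2, a FOS family partner of JUN proteins (chromosome 5, 32135801 to 32157842, plus strand). Fosl2 was at 7.71, 6.71 and 15.1 FPKM with PBS, 14.01, 17.3 and 13.6 with RANKL and 2.02, 5.54 and 2.83 with the vitamins. PBS replicate 3 lay inside the RANKL range, and every vitamin-treated library lay below every other. Fosl2 did not pass the test with RANKL (log2 fold change 0.47, SE 0.360, edgeR adjusted p = 0.544; 0.99 without PBS replicate 3, where it did not pass either). The vitamins lowered it 3.999-fold (-2.00, SE 0.373, adjusted p = 0.00483, and -2.41 without RANKL + Vit D + K replicate 2), a call kept under all 17 alternatives. It was also below the PBS group (-1.53, SE 0.368, adjusted p = 0.0104), by -1.01 without PBS replicate 3 and -1.935 without RANKL + Vit D + K replicate 2. This call was lost without RANKL + Vit D + K replicate 3 (adjusted p = 0.0509).

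Jdp2, the JUN dimerization protein (chromosome 12, 85599027 to 85639878, plus strand), showed the largest change with RANKL of the factors with reads in all libraries. Its FPKM was 4.11, 4.92 and 5.66 with PBS, 51.3, 79.1 and 36.2 with RANKL and 8.13, 25.3 and 9.69 with the vitamins. No library of a group reached the range of another group. The rise was 10.3-fold (log2 fold change 3.36, SE 0.410, edgeR adjusted p = 0.00502) and moved Jdp2 from the eighth to the second most abundant of the 10 genes by FPKM. The vitamins lowered it 3.57-fold (-1.84, SE 0.386, adjusted p = 0.00763, and -2.41 without RANKL + Vit D + K replicate 2). Both calls held under all 17 alternatives. Jdp2 was 2.88-fold above the PBS group (1.52, SE 0.384, adjusted p = 0.0126). That difference was 0.95 without RANKL + Vit D + K replicate 2, the highest of the 3 libraries, and its call was lost without PBS replicate 1 (adjusted p = 0.0518).

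A divergent long non-coding RNA gene, Gm47863, overlaps the 5′ end of Jdp2 on the opposite strand (chromosome 12, 85597019 to 85599191) and shares 26 bases with the promoter window printed above. It covers all 300 bases of the RefSeq window of another Jdp2 start. It had 25, 60 and 60 reads with PBS, 295, 353 and 121 with RANKL and 11, 41 and 22 with the vitamins. Gm47863, chosen for its position, fell with the vitamins (log2 fold change -3.26, edgeR adjusted p = 0.00413) and did not pass the test with RANKL (2.25, adjusted p = 0.0612). The sources do not say whether reads were counted by strand, so reads of the overlapping ends cannot be told apart.

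Jund encodes JUND, a JUN family subunit (chromosome 8, 70698949 to 70700616, plus strand, a gene of a single exon). Jund was at 27.6, 22.9 and 29.6 FPKM with PBS, 30.2, 29.3 and 26.6 with RANKL and 25.2, 32.1 and 22.8 with the vitamins. All groups overlapped. Its log2 fold changes were -0.03, 0.03 and 0.01 with SE 0.139 in each comparison (edgeR adjusted p = 0.950, 0.867 and 0.966), and their sign turned between settings, within -0.12 and 0.15. Fosl1 (FRA-1, chromosome 19, 5447547 to 5455946, plus strand) had 0 reads in all PBS libraries, 0, 6 and 0 with RANKL and 4, 18 and 0 with the vitamins. Fosl1 was therefore at or under the floor of 3 reads in most libraries, and no difference was called when genes of low counts were kept (adjusted p = 0.526, 0.607 and 0.171). Over the pooled reads, the ratio of the vitamins to RANKL was 4.07 (95% counting interval 1.599 to 12.3, counting error only), and 1.18 without RANKL + Vit D + K replicate 2, so it rests on that library. Ccdc85b overlaps Fosl1 on the opposite strand with 259 to 899 reads. Annotated opposite-strand genes within Nfatc1, Jund and Mitf had at most 17 reads in any library.

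Among the JUN genes, Jund made up 33.6% ± 6.51 (SD, n = 3) of the summed FPKM of Jun, Junb and Jund with PBS, 26.0% ± 6.16 with RANKL and 15.8% ± 4.17 with the vitamins. Of the partners, Jun passed the test with the vitamins against both other groups and Junb against PBS. Jun was at 14.9 to 22.6 FPKM with PBS, at 13.3, 20.0 and 8.96 FPKM with RANKL and at 69.3, 57.4 and 62.3 with the vitamins (log2 fold change 2.34 against RANKL and 1.80 against PBS, edgeR adjusted p = 0.000773 and 0.00109). Junb was at 30.8 to 41.0 FPKM with PBS, 49.0 to 102 with RANKL (adjusted p = 0.0898, and 0.0341 without RANKL + Vit D + K replicate 2) and 66.4 to 97.8 with the vitamins, above PBS (1.27, adjusted p = 0.00508).

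Fos, the partner that stands upstream of Nfatc1, had no called difference with all 9 libraries, and its vitamin values rested on 1 library. It was at 17.4, 27.9 and 8.12 FPKM with PBS, 64.9, 145 and 23.5 with RANKL and 0.640, 59.7 and 0.404 with the vitamins. RANKL + Vit D + K replicate 2 thus held about as much Fos as RANKL replicate 1, while the other 2 libraries of its group lay below every PBS library. Its log2 fold change was 1.98 with RANKL (SE 1.48, adjusted p = 0.537) and -1.89 with the vitamins (SE 1.48, adjusted p = 0.353). Without RANKL + Vit D + K replicate 2, Fos was called lower with the vitamins than with RANKL (-6.95, SE 0.956, adjusted p = 0.000458) and than with PBS (-4.97, SE 0.881, adjusted p = 0.00169), and the difference of RANKL from PBS still missed the threshold (adjusted p = 0.0765). The share of Fosl2 in the summed FOS family FPKM ranged from 8.48% to 87.3% among the vitamin-treated libraries. Fosb stayed at or below 0.0850 FPKM and was not called with all libraries (adjusted p = 0.231 with the vitamins against RANKL, and 0.0404 without replicate 2 of the vitamin-treated group).

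Of 13 tested AP-1 partners and other basic leucine zipper genes, 1 passed the test with RANKL, Mafg, which fell (log2 fold change -0.61, edgeR adjusted p = 0.0297; the list's count was 0 to 3 over the alternatives). With the vitamins 6 rose and 2 fell (median 0.35; 5 to 11 calls over the alternatives). Atf3, a stress-induced repressor or activator of the CREB family, rose most (3.65, adjusted p = 0.00112), from 24.2 to 31.1 FPKM with RANKL to 427, 117 and 370. Mafk, a small MAF protein, rose by 2.36 (adjusted p = 0.00617), and Batf2 and Batf3 fell (-2.38 and -1.32, adjusted p = 0.00768 and 0.0477).

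**Figure D3:**
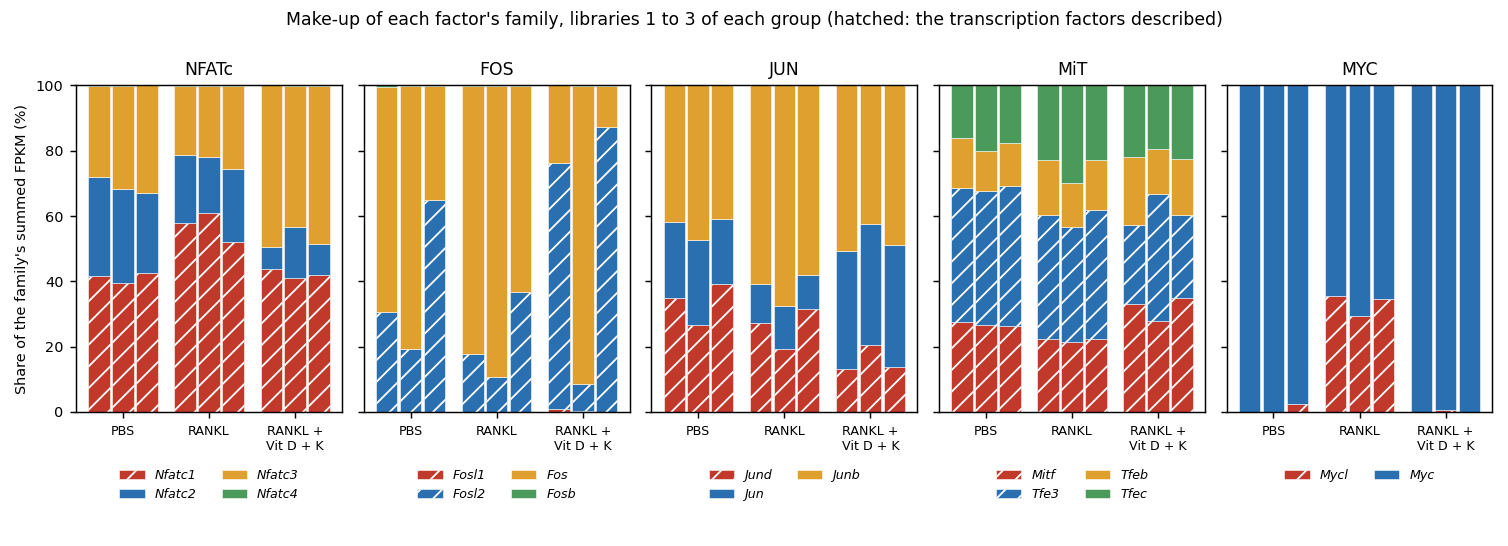
Share (%) of each gene in the summed FPKM of its family in each of the 9 libraries, 3 bars a group; hatched parts are the transcription factors described here. Nfatc1 takes its largest share with RANKL, Mycl is visible in the RANKL libraries and hardly elsewhere, and the Jund share is smallest with the vitamins.

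Mitf and Tfe3 encode MiT family factors that act on lysosomal and osteoclast genes; neither passed the test with RANKL, and Mitf rose with the vitamins. Mitf (chromosome 6, 97807052 to 98018707, plus strand) was at 12.4, 11.9 and 11.5 FPKM with PBS, 9.60, 8.83 and 9.04 with RANKL and 13.5, 10.3 and 13.9 with the vitamins. All RANKL libraries lay below all others, although the difference from PBS missed the threshold (log2 fold change -0.51, SE 0.165, edgeR adjusted p = 0.136; 0.0139 in a fit of the compared groups alone and 0.00819 without RANKL + Vit D + K replicate 2). Of the 9 factors, Mitf alone rose with the vitamins (0.62, SE 0.166, adjusted p = 0.0202). Against PBS the difference did not pass (0.11, SE 0.165, adjusted p = 0.633), but it did without RANKL + Vit D + K replicate 2 (0.29, adjusted p = 0.0248). The rise against RANKL was called under 11 of 17 alternatives, and it was 0.80 without RANKL + Vit D + K replicate 2 (adjusted p = 0.000144). It missed the threshold in a fit of the compared groups alone (adjusted p = 0.0548), without any 1 of the RANKL libraries (0.0515, 0.0591 and 0.0595) and without RANKL + Vit D + K replicate 1 or 3 (0.0604 and 0.0726).

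Tfe3 (chromosome X, 7762560 to 7775202, plus strand) had its highest level with PBS. It was at 18.5, 18.5 and 18.7 FPKM with PBS, 16.3, 14.4 and 15.97 with RANKL and 9.85, 14.4 and 10.0 with the vitamins. The PBS libraries lay above all others, and RANKL + Vit D + K replicate 2 was level with RANKL replicate 2. The difference between the vitamins and PBS passed the test (log2 fold change -0.69, SE 0.128, edgeR adjusted p = 0.0031, called under all 17 alternatives). The differences of RANKL from PBS (-0.38, adjusted p = 0.148) and of the vitamins from RANKL (-0.32, adjusted p = 0.0830) did not. Both passed without RANKL + Vit D + K replicate 2 (-0.38 and -0.44, adjusted p = 0.0321 and 0.00673). The latter also passed without RANKL replicate 2 (adjusted p = 0.0472) and with limma on log2 FPKM.

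The sum of the 4 MiT genes was 44.7 ± 0.709, 41.5 ± 1.32 and 39.15 ± 1.99 FPKM in the 3 groups (SD, n = 3). Tfeb was at 5.06 to 8.48 FPKM and Tfec at 7.17 to 12.2, and neither passed the test in any comparison. Mitf made up 26.8% ± 0.672, 22.1% ± 0.447 and 32.0% ± 3.72 of the sum, and Tfe3 41.6% ± 0.971, 37.5% ± 2.13 and 29.5% ± 8.34.

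Mycl (L-Myc, chromosome 4, 122995652 to 123002485, plus strand) was read almost exclusively with RANKL. Its read counts were 0, 0 and 3 with PBS, 665, 1749 and 428 with RANKL and 0, 35 and 0 with the vitamins. In FPKM the RANKL libraries were at 2.20, 5.80 and 1.36 and every other library was at or below 0.110. Over the pooled reads, RANKL exceeded PBS 854.4-fold (95% counting interval 292 to 4146), and the vitamins lowered Mycl 73.2-fold (52.5 to 105), intervals that cover counting error only. The edgeR test called both changes (adjusted p = 0.0186 and 0.00758), and fitted folds are not given as sizes because they depend on how reads of 0 are treated.

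The fall of Mycl with the vitamins was called under all 17 alternatives. The rise with RANKL missed the threshold without PBS replicate 1, 2 or 3 (adjusted p = 0.0949, 0.0656 and 0.101) and without RANKL replicate 1 or 2 (0.0566 and 0.0671). All 35 reads of the vitamin-treated group came from replicate 2, so without that library Mycl had 0 reads there. Likewise all 3 PBS reads came from replicate 3, and 1749 of the 2842 RANKL reads from replicate 2. The ratio of RANKL to PBS was 503-fold without RANKL replicate 2, 575-fold and 560.4-fold without PBS replicate 1 or 2, and at least 574-fold without PBS replicate 3, against a floor of 3 reads over the group. The ratio of RANKL to the vitamins was 43.1-fold without RANKL replicate 2, 50.8-fold and 49.8-fold without RANKL + Vit D + K replicate 1 or 3, and at least 535-fold without replicate 2 of that group, against the same floor.

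Myc, the better known family member, was not lower with the vitamins than with RANKL. It was at 0.217, 0.636 and 0.345 FPKM with PBS, 4.005, 14.04 and 2.57 with RANKL and 48.1, 18.5 and 24.99 with the vitamins. Myc rose with RANKL (log2 fold change 3.93, edgeR adjusted p = 0.0217) and again with the vitamins (2.37, adjusted p = 0.0219). Mycl was 33.1% ± 3.37 (SD, n = 3) of the summed FPKM of Myc and Mycl with RANKL, 29.2% to 35.4% in single libraries, and at most 2.52% in any library of the other groups. Mycl and Myc were both highest in replicate 2 among the RANKL libraries.

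Of 12 tested MiT and MYC family genes outside the 10 factors, Myc was the only one called with RANKL (0 or 1 over the alternatives) and 3 rose and 3 fell with the vitamins (median 0.24; 3 to 9 calls over the alternatives). Mnt, a MAX partner that opposes MYC, rose (1.24, adjusted p = 0.0128) together with Myc and Mlx. Mxd4, another MYC antagonist, fell most (-2.39, adjusted p = 0.000158), from 14.6 to 18.2 FPKM to 2.52 to 3.25, followed by Usf1 (-1.07, adjusted p = 0.00139) and Mxi1.

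Prdm1, which encodes the repressor BLIMP1 (chromosome 10, 44437177 to 44528501, minus strand), had the smallest p of the set with the vitamins against both other groups. It was at 6.08, 5.07 and 6.14 FPKM with PBS, 9.03, 9.88 and 6.61 with RANKL and 0.525, 0.766 and 0.622 with the vitamins. The vitamin-treated libraries were tightly grouped, replicate 2 included, and lay far under all others. The vitamins lowered Prdm1 12.04-fold (log2 fold change -3.59, SE 0.181, edgeR adjusted p = 6.16e-05), and it had the second smallest p of all 17002 genes tested in that comparison. It fell 8.95-fold below the PBS group (-3.16, SE 0.178, adjusted p = 6.50e-05), the fifth smallest p there. Both calls held under all 17 alternatives, with log2 fold changes from -3.72 to -2.52 and from -3.24 to -2.05.

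With RANKL alone, the lowest Prdm1 library still exceeded the highest PBS library, but the difference did not pass the test (0.43, SE 0.163, adjusted p = 0.198) in the main setting or in any of the 17 alternatives. In rank by FPKM among all genes with a value, Prdm1 moved from 4907th of 23806 with RANKL to 11637th of 22587 with the vitamins.

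Of the known BLIMP1 targets Bcl6 and Irf8, Bcl6 passed the test with RANKL against PBS and with the vitamins against RANKL. Irf8 passed in neither when all libraries were used. With the vitamins against PBS, Irf8 was lower (log2 fold change -1.03, edgeR adjusted p = 0.00676) and Bcl6 did not pass (adjusted p = 0.0796). Bcl6, a repressor of NFATc1 target genes, fell with RANKL (log2 fold change -1.005, edgeR adjusted p = 0.00779) from 11.04 to 12.6 FPKM to 5.81 to 7.24. It rose with the vitamins (0.67, adjusted p = 0.00664) to 8.95 to 9.28. Irf8, a macrophage factor that restrains osteoclast formation, was at 29.4 to 35.1 FPKM with PBS, 12.9 to 20.7 with RANKL (adjusted p = 0.0560; 0.0213 without RANKL + Vit D + K replicate 2) and 13.1 to 16.6 with the vitamins (-0.10 against RANKL, adjusted p = 0.773).

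Of 9 tested repressors of osteoclast formation, Bcl6 alone was called with RANKL (3 lower at an unadjusted p under 0.05, 2 with DESeq2 and 1 or 2 over the alternatives), and 4 rose and 0 fell with the vitamins by the edgeR test (median 0.27; 1 lower at an unadjusted p under 0.05 and 1 with DESeq2). These were Bcl6, Ddit3 (CHOP, a stress response factor, 4.50, adjusted p = 0.00012), Id2 (an inhibitor of helix-loop-helix factors, 2.12, adjusted p = 0.00561) and Rbpj (the Notch pathway factor, 1.55, adjusted p = 0.00058). For Ddit3 the level went from 4.84 to 5.37 FPKM with RANKL to 122, 68.7 and 113. The table lists a second gene of that symbol, with at most 1 read, which was not tested.

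Spi1, the gene of the macrophage lineage factor PU.1 (chromosome 2, 91082390 to 91114366, plus strand), was the most abundant of the 10 factors in every group. Its FPKM was 99.6, 100.0 and 97.5 with PBS, 113, 119 and 99.7 with RANKL and 57.3, 97.7 and 65.9 with the vitamins. RANKL + Vit D + K replicate 2 reached the PBS range and the other 2 libraries lay well below it. Spi1 did not pass the test with RANKL (log2 fold change 0.03, SE 0.138, edgeR adjusted p = 0.935). With the vitamins it fell 1.37-fold (-0.46, SE 0.138, adjusted p = 0.0318) and stood below PBS (-0.42, SE 0.138, adjusted p = 0.0359).

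These were the least stable calls of the set, held under 8 and 6 of 17 alternatives. Leaving out any 1 of the PBS, any 1 of the RANKL, or replicate 1 or 3 of the vitamin-treated libraries gave an adjusted p of 0.0570 to 0.127 against RANKL. Against PBS, omission of any 1 PBS library, RANKL replicate 1 or 3 or RANKL + Vit D + K replicate 1 or 3 gave 0.0540 to 0.189. The log2 fold change against PBS was -0.26 without RANKL + Vit D + K replicate 1 and -0.59 without replicate 2. Against RANKL it was -0.35 and -0.63 without these libraries (edgeR adjusted p = 0.108 and 0.000447). Of the 9 macrophage markers given above, 7 were called lower in the same group and Cd68 higher, and the part of this in the Spi1 values was not tested.

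Other lineage factors went both ways. Of 17 tested ETS and macrophage lineage genes, Spic rose with RANKL (2.83, adjusted p = 0.0183) and the myeloid factor genes Cebpa and Runx1 fell (-0.95 and -0.59, adjusted p = 0.0173 and 0.0484; 0 to 9 calls over the alternatives). With the vitamins 5 rose and 5 fell (median 0.09; 6 to 13 calls over the alternatives). Ets2 rose from 3.54 to 5.15 FPKM to 35.5 to 44.8 (3.36, adjusted p = 0.000158) and Ets1 by 2.17 (adjusted p = 0.0104). Spib, the closest relative of PU.1, fell from 0.916 to 1.18 FPKM to at most 0.0334 (adjusted p = 0.0101), and Irf4 fell by 1.80 on the log2 scale (adjusted p = 0.00145).

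Of 18 tested osteoclast genes that these factors are known to act on, 9 rose and 0 fell with RANKL by the edgeR test (median log2 fold change 2.46; 0 lower at an unadjusted p under 0.05 or with DESeq2; 5 to 12 calls over the alternatives), and 2 rose and 10 fell with the vitamins (median -1.09). Over all tested genes the shares were 2.35% higher and 1.26% lower with RANKL, and 16.4% and 17.2% with the vitamins. The list was drawn up with earlier results of these samples known and is no independent evidence of direction. Mmp9, a matrix protease, went from 0.0927 to 0.472 FPKM with PBS to 67.2 to 228 with RANKL (edgeR adjusted p = 0.00129) and 1.89 to 6.85 with the vitamins. Car2, the carbonic anhydrase that supplies protons for bone resorption, fell from 3.25 to 11.4 FPKM to at most 0.0712 (adjusted p = 0.000324). Calcr, the calcitonin receptor gene, was read in the RANKL libraries alone, at 0.409, 0.696 and 0.102 FPKM.

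Itgb3 and Clcn7 were the 2 targets that rose with the vitamins. Itgb3, a β integrin subunit, rose from 2.26 to 4.65 FPKM to 18.5, 3.83 and 12.3 (2.08, adjusted p = 0.0186), and the chloride transporter gene Clcn7 rose by 0.54 (adjusted p = 0.0383). Atp6v0d2, a proton pump subunit known as an NFATc1 target, was raised by RANKL (3.04, adjusted p = 0.0095) and stayed at 38.8, 12.4 and 21.96 FPKM with the vitamins (-0.23, adjusted p = 0.701). Tnfrsf11a, which encodes RANK itself, fell from 11.5 to 20.3 FPKM to 3.45, 12.04 and 4.88 (-1.08, adjusted p = 0.0441; -1.67 without RANKL + Vit D + K replicate 2).

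Of 27 upstream genes of RANK, NF-κB and costimulatory signalling, Nfkb2 rose (0.89, edgeR adjusted p = 0.0199) and the M-CSF receptor gene Csf1r fell (-0.94, adjusted p = 0.0484; 0 to 6 calls over the alternatives). With the vitamins 8 rose and 6 fell (median -0.09; 6 to 17 calls over the alternatives). Mapk14, the p38α kinase, fell most (-1.81, adjusted p = 0.0191; -2.74 without RANKL + Vit D + K replicate 2), from 57.5 to 61.8 FPKM to 5.59, 32.9 and 9.88, and Csf1r fell again (-1.45, adjusted p = 0.0020). The adaptor Gab2 and the kinase gene Tec rose most (1.63 and 1.03, adjusted p = 0.0116 and 0.0140).

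Among 16 cofactors of these factors, Ppargc1b (PGC-1β, a coactivator of mitochondrial genes in osteoclasts) and the DNA methyltransferase gene Dnmt3a rose with RANKL (1.51 and 1.44, edgeR adjusted p = 0.0145 and 0.0355; 0 to 5 calls over the alternatives). With the vitamins 5 rose and 3 fell (median -0.00; 4 to 12 calls over the alternatives). Ppargc1b fell from 3.40 to 4.24 FPKM to 0.340 to 0.588 (-2.79, adjusted p = 0.000362), below its PBS range of 1.01 to 1.49. Esrra, which encodes the nuclear receptor ERRα, fell by 1.05 on the log2 scale (adjusted p = 0.0064). Pparg, a nuclear receptor of lipid metabolism, rose (2.13, adjusted p = 0.00336), and so did the histone methyltransferase gene Ezh2 (1.38, adjusted p = 0.0371).

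Against the PBS group, the vitamin-treated cells had 6 of the 18 osteoclast targets higher and 1 lower, where 19.8% of all tested genes were called higher and 21.0% lower. Of the other lists, 7 of 13 AP-1 partners and related factors were higher and 2 lower, and of 27 upstream signalling genes 5 were higher and 10 lower. The NFAT and calcineurin genes counted 4 higher and 2 lower, the MiT and MYC family genes 2 and 3, the lineage factors 5 and 6 (7 to 14 calls over the alternatives), the cofactors 5 and 4 and the repressors 3 and 2.

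**Figure D4:**
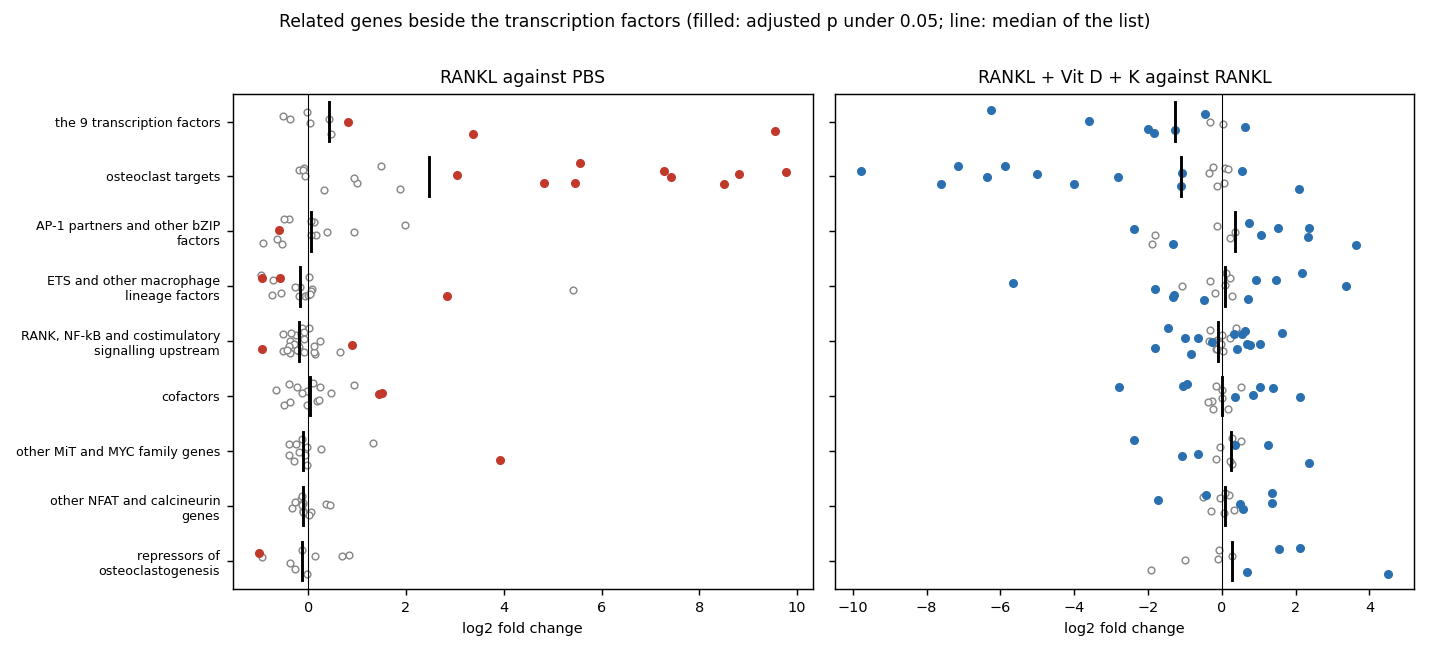
Fitted log2 fold change of each tested gene of the related lists beside the 9 factors, for RANKL against PBS (left) and the vitamins against RANKL (right); filled points passed an adjusted p of 0.05 and black lines are list medians. The osteoclast targets have the largest median in the left panel, at 2.46; the medians of the lists other than these targets and the factors run from -0.19 to 0.06 on the left and from -0.09 to 0.35 on the right.

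By level per transcript length, the order of the factors differed between the groups. With PBS the group means in FPKM ran Spi1 99.0 ± 1.35, Jund 26.7 ± 3.42, Tfe3 18.6 ± 0.136, Mitf 11.96 ± 0.446, Fosl2 9.82 ± 4.56, Nfatc1 9.46 ± 0.401, Prdm1 5.76 ± 0.601 and Jdp2 4.90 ± 0.773 (SD, n = 3), with Mycl and Fosl1 at or near 0. The libraries of Fosl2 overlapped those of Mitf and Nfatc1, and those of Prdm1 and Jdp2 overlapped each other, so these neighbours did not differ beyond their spread. With RANKL the order was Spi1 110.7 ± 9.89, Jdp2 55.5 ± 21.8, Jund 28.7 ± 1.86, Nfatc1 18.2 ± 3.53, Tfe3 15.6 ± 1.01, Fosl2 15.0 ± 2.04, Mitf 9.16 ± 0.398, Prdm1 8.50 ± 1.70 and Mycl 3.12 ± 2.36. There Nfatc1, Tfe3 and Fosl2 overlapped, and so did Mitf and Prdm1. With the vitamins Spi1 (73.6 ± 21.3) and Jund (26.7 ± 4.84) were again first, followed by Jdp2 (14.4 ± 9.48), Mitf (12.6 ± 1.99) and Tfe3 (11.4 ± 2.61). The libraries of the last 3 overlapped, and those of Jund and Jdp2 did as well. Nfatc1 followed at 6.77 ± 0.609, above all Fosl2 libraries, and Prdm1 came after Fosl2 at 0.638 ± 0.122.

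The same libraries were often the highest or the lowest of their group. RANKL replicate 2 was the highest RANKL library for 7 of the 10 genes and RANKL replicate 3 the lowest for 7. RANKL + Vit D + K replicate 2 was the highest of its group for 9 and the nearest to the RANKL mean for 9. Over all 17002 tested genes the same libraries held these places for 47.1%, 37.0%, 55.8% and 58.9%, in that order. Prdm1 belonged to these 9 too, but its replicate 2 was at 0.766 FPKM against 6.61 in the lowest RANKL library.

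Over the 9 libraries, of which 3 share a group, Pearson's r of log2 CPM (counts scaled to library size) was 0.948 between Jdp2 and Mycl and -0.933 between Mitf and Mycl, and 0.967 and -0.939 after group means were removed. These were the highest and the lowest r of any pair of tested factors. Mycl had 0, 0 and 3 reads with PBS and 0, 35 and 0 with the vitamins. Its r values, also within groups, thus rest largely on single libraries. Fosl2 and Prdm1 had r = 0.912, and 0.614 within groups. Nfatc1 and Fosl2 had r = 0.813, and 0.0786 within groups. These are descriptions of 9 points in 3 clusters.

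Among 11175 genes with a mean of at least 1 FPKM, the nearest in pattern to Nfatc1 by the same r were Car2 (0.972) and Pheta1 (0.968). Mdh2 was among the nearest to Jdp2 (0.983). Mycl was nearest to Nr1h3 (0.988) and Mfn2 (0.985), and Prdm1 to Trim30c (0.983) and Clec4a2 (0.980). Spi1 was nearest to Gpd1l (0.995) and Fhod1 (0.993), Fosl2 to Tmem41a (0.971) and Orai2 (0.971), Tfe3 to 2510009E07Rik (0.987) and Galc (0.986), and Mitf to Ptbp3 (0.985) and Invs (0.983). Jund, with no called difference, had the lowest r to its nearest genes, Gpat4 (0.902) and Gm12254 (0.889).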

How the data were processed

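RNA-seq of 9 BMDM libraries, 3 a group by the sample labels, was analysed from 1 deposited table. The authors deposited whole-number counts of reads per gene, not normalized, and FPKM values that they scaled to transcript length and library. The submitters' processing notes name cutadapt 1.9, HISAT2 2.0.4, StringTie 1.3.4d and edgeR, and list a human build, whereas gene IDs are mouse and 90.6% of the IDs shared with GENCODE M21 carry its GRCm38 coordinates. Strand use in counting is not given in the sources used here. Reads carry no molecular identifiers, so counting intervals and floors (3 reads, at most 4.55e-06% of a library) cover counting error only. Counts were filtered (filterByExpr), scaled (TMM) and compared in edgeR 4.0.16 (R 4.3.3) by a quasi-likelihood fit over all 9 libraries, Benjamini-Hochberg adjusted over 17002 genes with a threshold of 0.05. The SE is the log2 fold change divided by the square root of F. Alternatives were DESeq2 1.42.0, limma 3.58.1 on log2(FPKM + 0.1 or 1), median-of-ratios scaling, other filters, only the groups compared, a replicate block and each library left out. Scripts were tested on simulated counts with 1 spread for all genes. There 14.4% of 2-fold and 82.7% of 4-fold changes between PBS and RANKL were called. A difference that did not pass is therefore no evidence of no change.

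Replicate numbers come from the labels, which give no shared mouse or day. The deviations of same-numbered libraries from their group means had r = 0.122, 0.219 and 0.155 between PBS and RANKL. The values were 0.00625, 0.0428 and 0.107 for the vitamins against RANKL and -0.0216, 0.0217 and 0.0237 against PBS. The neutrophil marker sum and Fos were highest in replicate 2 and lowest in replicate 3 of every group. Whether same-numbered libraries share an origin was not tested. Named genes were the 10 factors, their partners and repressors, treatment checks, up to 2 called genes per list and direction with the largest fold change, and the 2 genes nearest in pattern to each factor, of which some are not reported here; Gm47863 and further list members were chosen after their values were seen. The factors and lists were chosen with earlier results of these data known. Promoters are from RefSeq (GRCm38.p6).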

Additional observations from a re-analysis of the deposited data

How the results depend on the processing

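Under all 17 alternatives, Nfatc1, Fosl2, Jdp2, Mycl and Prdm1 were called lower with the vitamins against RANKL, Prdm1 and Tfe3 lower against PBS and Jdp2 higher with RANKL. The number of genes called with RANKL against PBS was 614, 1612 with DESeq2 and 1736 in a fit of the 2 groups alone, and 126 to 1903 with 1 library left out. With the vitamins the numbers were 3199 to 8259 against RANKL and 4766 to 8868 against PBS with 1 library left out. Called factors then numbered 1 to 5, 5 to 8 and 3 to 7 in the 3 comparisons. With limma on log2(FPKM + 0.1) the median of all genes with the vitamins against RANKL was -0.16 in place of -0.04, with 2184 genes higher and 3953 lower in place of 2796 and 2929, and FPKM differences there are to be read relative to that shift.

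Signs turned for differences near 0. For Jund the log2 fold change of RANKL against PBS, -0.03, was 0.0077 with DESeq2, 0.11 and 0.10 with limma at pseudocounts of 0.1 and 1, 0.034 without a filter, 0.020 with a filter of 1 CPM and 0.027 in the fit of 2 groups, and -0.084 to 0.12 without single libraries. Jund with the vitamins against PBS was -0.0090 and -0.0085 with limma and -0.064 to 0.15 without single libraries, and against RANKL -0.12 and -0.11 with limma, -0.00039 without a filter and -0.038 without RANKL + Vit D + K replicate 2, the lowest of -0.038 to 0.12 without single libraries. Spi1 with RANKL was -9.49e-05 without RANKL replicate 1, and Mycl with the vitamins against PBS, which was not called, was -3.20 without RANKL + Vit D + K replicate 2 and up to 6.54 without other libraries.

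With the replicate number as a block, 825, 5873 and 7041 genes and 3, 7 and 6 factors were called in the 3 comparisons, and the block changed the call of none of the 9 factors. The cause of the other changes was not tested. Each group has 3 libraries, and RANKL + Vit D + K replicate 2 stands apart.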
